A study of Mus musculus with 3 samples.

Results

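The genes described here are 8 mouse genes of cholesterol synthesis and its control, *Hmgcs1*, *Idi1*, *Fdft1*, *Sqle*, *Lss*, *Dhcr7*, *Insig1* and *Srebf2*. They were taken by name, as sterol genes with a link to cleft palate, by a rule that uses no measured value but was written with earlier results of these data known, and all 8 were measured, with 19 of the 34945 probe sets that name 1 gene and 8 of 18193 genes. The study asked which genes differ in expression before, during and after the palatal shelves fuse. Maxillae of ICR mouse fetuses at E14, given as female in the labels, were kept in suspension culture, with no treatment named. Tissue came from the shelf edge before fusion (5 h) and from the median palate during (24 h) and after fusion (60 h), and each stage was hybridized to 1 Affymetrix whole-genome mouse array. Fusion, hours in culture and the piece dissected therefore change together and cannot be told apart, and it is not stated how the samples collected per stage, each extracted on its own, relate to the single array.

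Cholesterol is built from acetyl-CoA through mevalonate and squalene to lanosterol, which is then trimmed to cholesterol by the enzymes of the last steps. Cells sense membrane sterol through SCAP and the INSIG proteins: when sterol is low, SCAP carries SREBP2, the product of *Srebf2*, to the Golgi, where it is cut into a transcription factor that switches on the synthesis enzymes and *Insig1* itself. In the embryo cholesterol is also attached to hedgehog proteins. Loss of DHCR7 causes Smith-Lemli-Opitz syndrome, in which cleft palate is frequent, and mice that lack both INSIG proteins have clefts of the face and palate.

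Signals were scaled to one trimmed mean, and the background floor, read from 81 sensory receptor probe sets that this tissue should not express, was 19.4 before, 13.3 during and 14.7 after fusion. Since each stage had a single array, stages could not be tested against each other and each value stands without a biological error. The only available spread is that of the log2 ratio between probe sets of one gene, whose SD for signals over 100 was 0.23 between the first pair of stages, 0.31 between the array before and that after fusion, and 0.26 between the last pair. Such a spread says nothing of differences between fetuses. Of the tissue's markers, 10 of 10 epithelial and 11 of 11 palatal mesenchyme genes lay above the floor on every array. Over all probe sets that are not controls, 56.8% before, 65.6% during and 61.4% after fusion did. So did 11 of 11 macrophage and 8 of 8 endothelial markers on every array, so that these counts do not identify the tissue.

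After fusion, the brightest probe set of each of the 8 genes had a higher signal than before fusion, by 1.25-fold (*Lss*) to 2.35-fold (*Idi1*). However, *Lss* had a log2 ratio of -0.04 with scaling to the poly-A controls, and the second probe set of *Srebf2* had a ratio of 0.995. Over all genes 44.8% had a ratio above 1 in this comparison. The median log2 ratio of the 8 was 0.60, against -0.09 over 13985 genes above the floor. During fusion the genes were divided, with 5 above and 3 below their signal before fusion and a median log2 ratio of 0.20, against -0.05 over 13911 genes. Over all genes 46.3% had a ratio above 1 during fusion, so that 5 of 8 is near the background. Between the arrays during and after fusion 6 of the 8 genes were higher after and 2 slightly lower, with a median of 0.52, against -0.03 over 14325 genes. Over all genes 47.7% were higher after than during fusion. The array after fusion gave the highest of the 3 signals for 6 of the 8, whereas it was the highest for 32.7% of the 11828 genes above the floor on all 3 arrays.

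**Figure D1:**
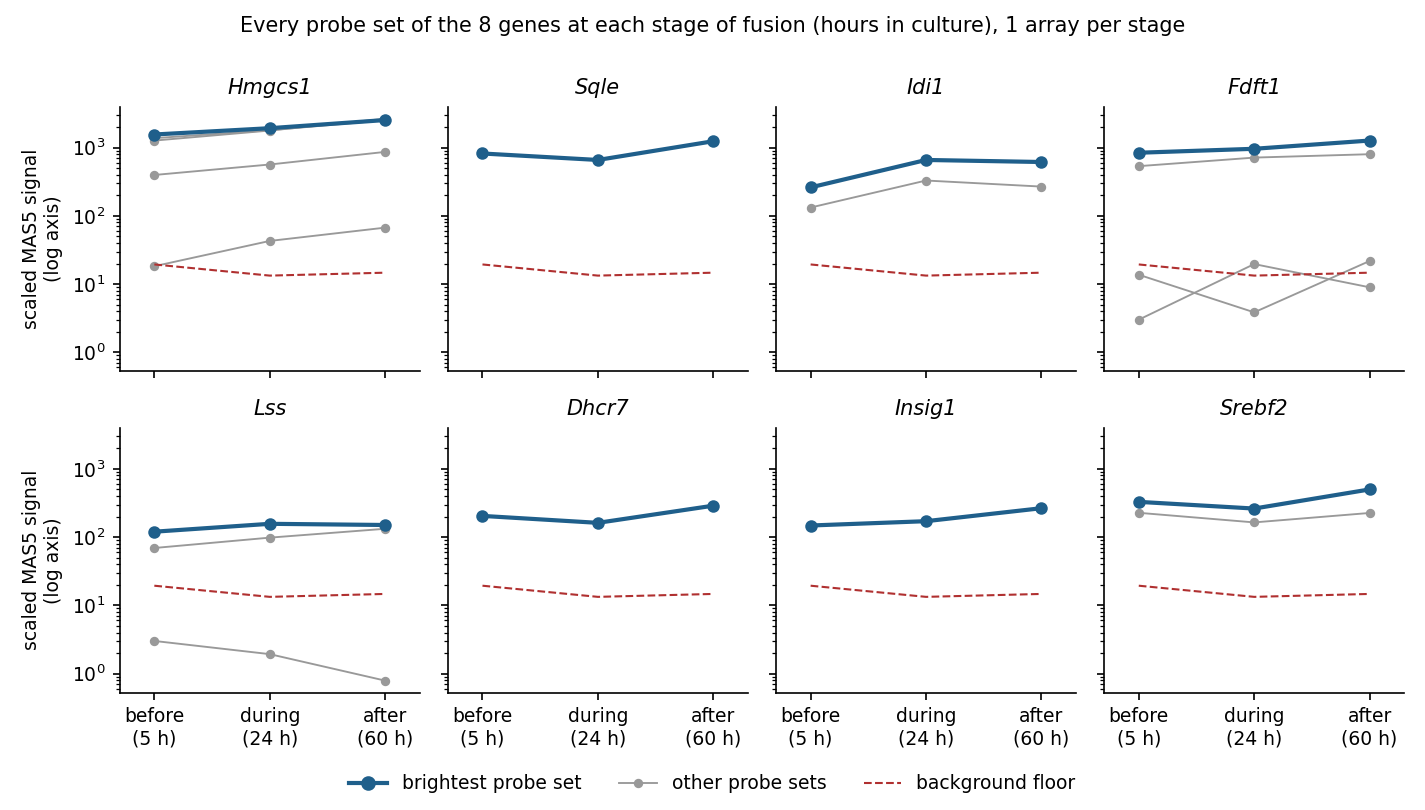
Scaled MAS5 signal (log axis) of all 19 probe sets of the 8 genes by hours in culture, each stage being a single array; the brightest probe set of each gene is in blue, others are in grey, and the dashed line is the background floor. The brightest probe sets lie above 100 at every stage; *Idi1* is higher at 24 h than at 5 h, while *Sqle*, *Dhcr7* and *Srebf2* dip at 24 h and are highest at 60 h.

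A threshold of 2-fold was passed by few of them. During fusion *Idi1* alone was over 2-fold higher and none was lower, beside 5.46% of all genes past 2-fold upwards and 3.19% downwards. After fusion it was again *Idi1* alone, against 12.6% of all genes higher and 9.59% lower than before fusion, and *Insig1* joined it (log2 ratio 1.02) with the signals as deposited. None of the 8 passed 2-fold from during to after fusion, except that *Sqle* and *Srebf2* did (log2 ratios of 1.06 and 1.08) with scaling to one median. The shares over all genes were 8.74% higher and 5.08% lower. After fusion, 1 of 8 is near the background, so that the 2-fold count does not set these genes apart. At 1.5-fold, 6 of the 8 were higher after than before fusion and none was lower (21.2% and 23.1% of all genes). Of these 6, *Fdft1*, *Sqle* and *Srebf2* lay just past the threshold (1.51, 1.51 and 1.52), and the count was 7 on unscaled signals, 4 after quantile normalization, 3 when hybridization controls set the scale and 1 under poly-A scaling. At the same threshold 4 were higher after than during fusion and none lower (16.9% and 15.7%), and 1 was higher during than before fusion and none lower (13.0% and 11.7%).

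Promoter stretches of 4 genes are shown because SREBP2 acts through short elements near the start of its target genes, together with the factors NF-Y and Sp1. They are RefSeq sequence of GRCm38.p6, plus strand, 5′ to 3′, with positions counted from the annotated start of the gene and ending upstream of it. Capitals mark the letters TCACNCCAC of the sterol regulatory element, CCAAT of NF-Y, GGGCGG of Sp1 and CACGTG of the E-box, each on either strand, so that CCAAT on the minus strand reads as ATTGG.

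Hmgcs1, chr13:119690171-119690320, positions -180 to -31: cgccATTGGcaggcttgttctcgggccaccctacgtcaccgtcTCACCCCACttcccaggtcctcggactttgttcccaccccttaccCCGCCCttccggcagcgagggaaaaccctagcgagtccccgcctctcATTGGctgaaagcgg

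Idi1, chr13:8885506-8885605, positions -100 to -1: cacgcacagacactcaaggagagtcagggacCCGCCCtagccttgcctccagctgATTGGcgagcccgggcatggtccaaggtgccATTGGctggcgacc

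Insig1, chr5:28071172-28071322, positions -240 to -90: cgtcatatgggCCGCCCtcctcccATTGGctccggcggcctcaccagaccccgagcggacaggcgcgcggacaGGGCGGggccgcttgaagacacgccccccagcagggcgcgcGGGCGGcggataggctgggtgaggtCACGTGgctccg

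Srebf2, chr15:82147049-82147249, positions -220 to -20: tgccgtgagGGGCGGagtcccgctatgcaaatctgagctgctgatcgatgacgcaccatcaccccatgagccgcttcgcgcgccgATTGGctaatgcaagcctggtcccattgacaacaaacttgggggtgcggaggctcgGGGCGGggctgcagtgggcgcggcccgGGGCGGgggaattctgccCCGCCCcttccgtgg

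Windows from 250 bases before to 50 bases after a start were given for 6 of the 8 genes, with 3 starts for *Dhcr7*. The sterol element as spelled above was found in the window of *Hmgcs1*, at position -137, and in no other of these 6 genes; it occurs in 1.24% of 32851 windows of all genes. Of the 8 windows of these genes 6 held CCAAT and 7 held GGGCGG, which occur in 37.4% and 35.7% of all windows. In *Hmgcs1* the sterol element lies between CCAAT boxes at positions -176 and -45. In *Idi1* a pair of CCAAT boxes lies at -45 and -14, and in 1 window of *Dhcr7* at -85 and -49. *Insig1*, at position -101, and *Dhcr7* held CACGTG (7.15% of all windows). Of 13 other sterol synthesis genes with a window, 11 held CCAAT, 12 held GGGCGG and none the sterol element as spelled. These are matches of letters, and a missing match says only that these letters are not in the window.

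*Hmgcs1* encodes the cytosolic HMG-CoA synthase, an early enzyme of the mevalonate pathway. The signal of its brightest probe set was 1554 before, 1922 during and 2531 after fusion, with ratios of 1.24 and 1.63 to the array before fusion. The log2 ratio after fusion, 0.70, exceeds 2 SD of the spread between probe sets (0.62), and that during fusion, 0.31, does not exceed 0.45. All 5 probe sets of *Hmgcs1* were ordered in the same way. The brightest carries a suffix that marks possible cross-hybridization, and 3 of the other 4 exceeded 2-fold there. Those 3 had a ratio of 2.09, a ratio of 2.18 and, for the dimmest, a bound of at least 3.46. The dimmest had a signal of 18.3 before fusion, under the floor, 42.9 during and 67.2 after fusion.

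*Idi1*, the isomerase that makes dimethylallyl from isopentenyl diphosphate, gave 261 before, 659 during and 615 after fusion. It was 2.52-fold higher during and 2.35-fold higher after fusion than before it. These log2 ratios, 1.33 and 1.24, are the largest of the 8 genes, and 2.93% and 9.77% of all genes had a higher ratio. Its second probe set gave 132, 329 and 268, with ratios of 2.49 and 2.03. The arrays during and after fusion differed little, with a log2 ratio of -0.10 that turned to 0.05 with scaling to one median. Scaling to the poly-A controls left the log2 ratio at 1.06 during fusion and took it to 0.87 after fusion, under the 2-fold threshold.

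*Fdft1*, squalene synthase, commits the pathway to sterols. The brightest probe set gave 839.9 before, 960 during and 1267 after fusion, and the second gave 534, 713 and 799. As for *Hmgcs1*, the brightest carries the suffix that marks possible cross-hybridization. Its ratio of after over during fusion was 1.32, against 1.12 for the second. Ratios of the brightest were 1.14 during fusion, under 1 with the poly-A controls (log2 -0.08), and 1.51 after fusion. The second probe set had nearly the same log2 ratio after fusion, 0.58 against 0.59, neither over 2 SD, and a ratio of 1.33 during fusion. The other 2 probe sets were under the floor on 2 of the 3 arrays and reached 21.8 and 19.7 at most.

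*Sqle*, squalene epoxidase, is a step that takes up oxygen and a second control point of the pathway. Its single probe set gave 819 before, 658 during and 1239 after fusion. It was thus lowest during fusion, with a ratio of 0.804 to before fusion, and 1.51-fold higher after than before fusion. The largest difference lay between the arrays during and after fusion, a ratio of 1.88 and a log2 ratio of 0.91, over 2 SD (0.53). Of all genes, 9.93% had a higher ratio in that comparison.

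*Lss* closes the ring to lanosterol. Its brightest probe set, 119.9 before, 156 during and 150.4 after fusion, showed the smallest range of the 8 genes, 0.38 on the log2 scale. The second probe set gave 69.2, 98.2 and 132, with a ratio of 1.91 after fusion against 1.25 for the brightest, so that the probe sets disagree on the array after fusion. They also differ on its place relative to the array during fusion, with ratios of 0.961 and 1.35. Another probe set stayed under the floor at every stage. The suffix of the brightest marks probes shared between transcripts.

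*Dhcr7* reduces 7-dehydrocholesterol to cholesterol in the last step. It had 1 probe set, which gave 204 before, 162 during and 289 after fusion. The order of stages was that of *Sqle*: lowest during fusion (ratio 0.791), highest after it (1.41 to before and 1.78 to during fusion). Only the log2 ratio of after over during fusion, 0.84, exceeded 2 SD, and 11.1% of all genes had a higher ratio in that comparison.

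*Srebf2*, the gene of SREBP2, gave 328 before, 262 during and 499 after fusion with its brightest probe set. The ratios were 0.798 during and 1.52 after fusion to before fusion, and 1.91 for after over during fusion. Its second probe set gave 227, 164 and 226, lowest during fusion as well but level after fusion, with a ratio of 0.995 to before fusion. The dip during fusion was thus seen in both probe sets, and the excess after over before fusion in 1 of 2. *Insig1*, which holds SCAP back in the endoplasmic reticulum and is a classic target of SREBP2, gave 148 before, 171 during and 265 after fusion. Its ratio of 1.79 after over before fusion (log2 0.84) exceeded 2 SD, as did that of 1.55 after over during fusion. In these comparisons 15.2% and 15.5% of all genes had a higher ratio. The ratio of 1.16 of *Insig1* during fusion was under 1 with the poly-A controls (log2 -0.06).

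The 8 genes therefore showed 3 orders of the stages, read from the values. *Hmgcs1*, *Fdft1* and *Insig1* were lowest before and highest after fusion, though with the poly-A controls *Fdft1* and *Insig1* were lowest during fusion. *Idi1* and *Lss* were lowest before fusion and close to level from during to after fusion, read from the brightest probe sets. With the poly-A controls *Lss* was lowest after fusion, by a log2 ratio of -0.04 to before fusion. The second probe set of *Lss* was highest after fusion, with a ratio of 1.35 to during fusion. *Sqle*, *Dhcr7* and *Srebf2* were lowest during fusion, with log2 ratios to before fusion between -0.34 and -0.31 that did not exceed 2 SD (0.45), and their log2 ratios of after over during fusion were 0.84 to 0.93. The dip kept its sign under the 6 scalings, and ranged from -0.04 to -0.06 with the signals as deposited to -0.59 to -0.61, past 2 SD, with the poly-A controls. The second probe set of *Srebf2* was past 2 SD as well (-0.47).

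Of 22 enzymes of sterol synthesis listed, 19 were measured, and all 19 lay above the floor on every array. After fusion 17 of the 19 exceeded the median of all genes, and the median log2 ratio of the list was 0.59. Past 2-fold upwards were 3, *Msmo1*, the sterol C4 methyl oxidase (3.24), *Fdps*, which makes farnesyl diphosphate (2.54), and *Idi1*, and none passed it downwards. That is 3 of 19, near the 12.6% and 9.59% of all genes, and with the poly-A controls the count was 1. *Ebp*, the sterol isomerase, had a ratio of 1.87, *Sc5d*, the lathosterol desaturase, 1.76, *Nsdhl* 1.70 and *Cyp51*, which removes the 14-methyl group, 1.63. The lowest ratios were those of *Mvk*, mevalonate kinase (0.727), *Erg28* (0.887) and *Pmvk* (0.970). Among the 13 listed enzymes that are not among the 8 genes, the median log2 ratio was 0.38.

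*Msmo1* had signals of 369, 626 and 1196 before, during and after fusion, and *Fdps* of 815, 1216 and 2065, in the same order of stages as *Hmgcs1*. During fusion *Idi1* was the only enzyme of the list past 2-fold, followed by *Msmo1* (1.70), *Sc5d* (1.65) and *Fdps* (1.49). *Mvk* (0.670), *Lbr*, a sterol reductase that is also the lamin B receptor (0.790), and *Dhcr7* (0.791) were the lowest. The median log2 ratio was 0.31, and 14 of 19 exceeded the median of all genes. Between during and after fusion no enzyme passed 2-fold, 13 of 19 exceeded the median of all genes, and the list's median was 0.34; *Msmo1* (1.91), *Sqle* and *Dhcr7* were the highest and *Erg28* (log2 ratio -0.51), *Pmvk* (0.859) and *Idi1* (0.933) the lowest.

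**Figure D2:**
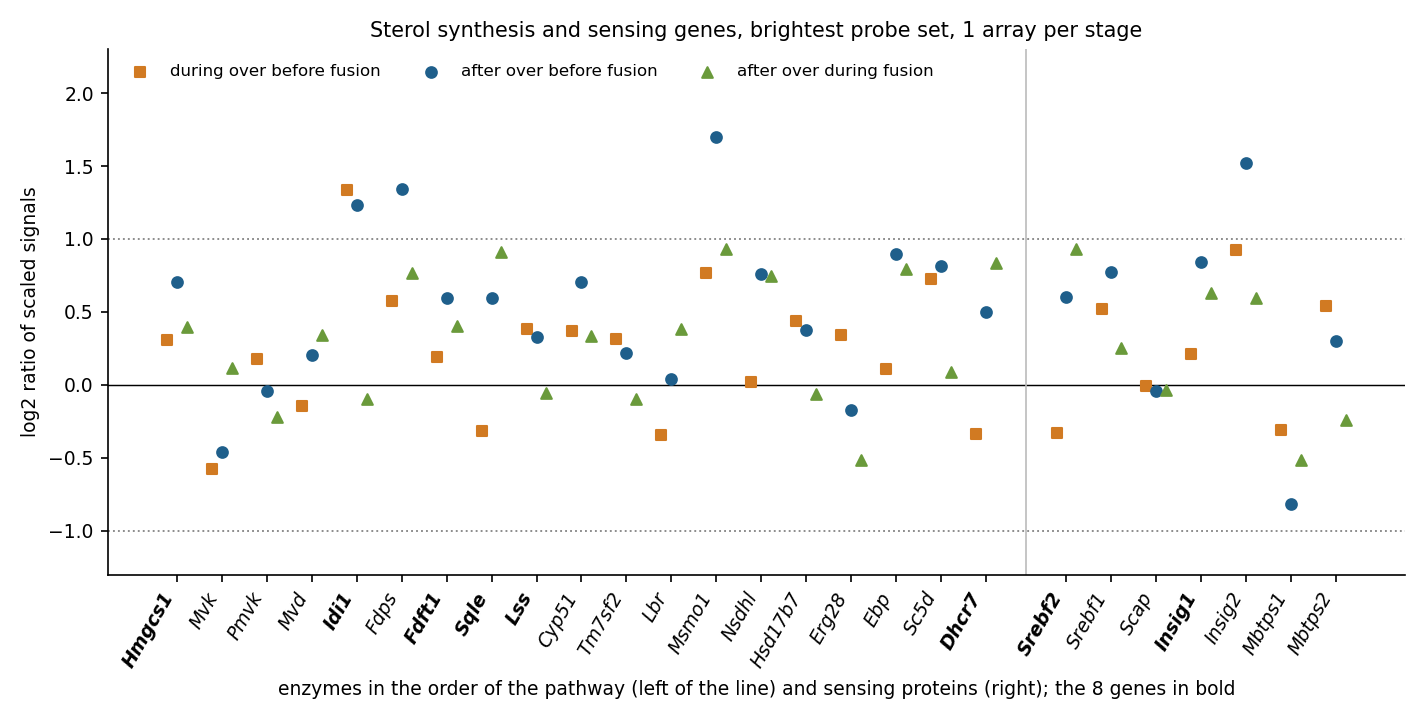
Log2 ratio of scaled signals (brightest probe set, 1 array per stage) for 19 sterol synthesis enzymes in pathway order and 7 sensing genes, with dotted lines at 2-fold and the 8 genes in bold. After over before fusion (circles), *Msmo1*, *Fdps*, *Idi1* and *Insig2* lie over the 2-fold line and no gene lies under the lower one.

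Among the 7 sensing genes, *Insig2* was 2.87-fold higher after fusion, with signals of 212, 402 and 607, and was the only one past 2-fold. With other scalings *Insig2* passed it during fusion as well (log2 ratio 1.20, signals as deposited), *Mbtps1* downwards after fusion (-1.19, poly-A controls) and *Srebf2* as given above. *Srebf1*, whose products SREBP1a and SREBP1c act mostly on fatty acid genes, was 1.43 times its first signal during and 1.71 times after fusion. *Scap* was level, with ratios of 0.995 and 0.972. *Mbtps1*, the protease that makes the first cut in SREBPs, had the lowest ratios after fusion, 0.567 to before and 0.701 to during fusion, with signals of 1383, 1119 and 785. *Mbtps2*, which makes the next cut, had ratios of 1.45 during and 1.23 after fusion.

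Of 9 genes of sterol uptake and transport 7 were measured, and none passed 2-fold, except *Lipa* and *Stard4* after over before fusion with the signals as deposited (log2 ratios of 1.13 each). *Stard4*, a cytosolic sterol carrier, and *Lipa*, the lysosomal lipase that frees cholesterol from its esters, had the highest ratios after fusion, 1.93 each, followed by *Scarb1*, the HDL receptor (1.32). *Npc1*, which lets cholesterol out of the lysosome, had a ratio of 1.17 and *Npc2*, its partner, of 1.22. *Mylip*, a ubiquitin ligase, had the lowest (0.848). In the efflux and storage list, *Apoe*, which carries cholesterol between cells, was 5.73-fold higher after than before fusion and 3.44-fold higher than during fusion. *Ch25h*, which makes 25-hydroxycholesterol, was 2.20-fold higher during fusion with a signal close to the floor before fusion (25.3 before and 55.6 during fusion). *Cyp46a1* was at least 2.00-fold higher during fusion, under the floor before it. With the poly-A controls *Ch25h* and *Cyp46a1* did not reach 2-fold (log2 ratios of 0.87 and 0.73). *Abca1*, the efflux pump, had ratios of 1.89 during and 1.67 after fusion. *Cyp27a1*, the sterol 27-hydroxylase, had the lowest ratio of the list during fusion, 0.552.

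Of 10 fatty acid synthesis genes 6 had a lower signal after than before fusion, with a median log2 ratio of -0.20 for after over before and -0.24 for during over before fusion, the second above 0 (0.04) with the signals as deposited. Over all genes 44.8% had a ratio above 1 after fusion, so that 6 of 10 lower is near the background. Only *Me1*, malic enzyme (2.76 during and 4.93 after fusion), and *Acss2*, which makes acetyl-CoA from acetate (2.03 after fusion), passed 2-fold, the second not with the poly-A controls (log2 ratio 0.65). *Elovl6* (0.648), *Acly* (0.787) and *Scd1* (0.806) were the lowest after fusion and *Fads1* (0.645), *Fads2* (0.685) and *Scd1* (0.702) during fusion, and *Fasn*, fatty acid synthase, had ratios of 1.19 and 1.26. Of 8 genes of the isoprenoid branch, which makes dolichol, ubiquinone and prenyl groups from the same precursors, none passed 2-fold and the median after fusion was -0.30, against -0.09 over all genes. With the poly-A controls that median was -0.67, and *Ggps1* (-1.05) and *Dhdds* (-1.12) passed 2-fold downwards after fusion. In fold terms *Dhdds* (0.595), *Ggps1* (0.622) and *Coq2* (0.703) were the lowest after over before fusion, and *Ggps1* (0.558), *Coq2* (0.641) and *Nus1* (0.660) those after over during fusion. The differences between lists were not tested.

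**Figure D3:**
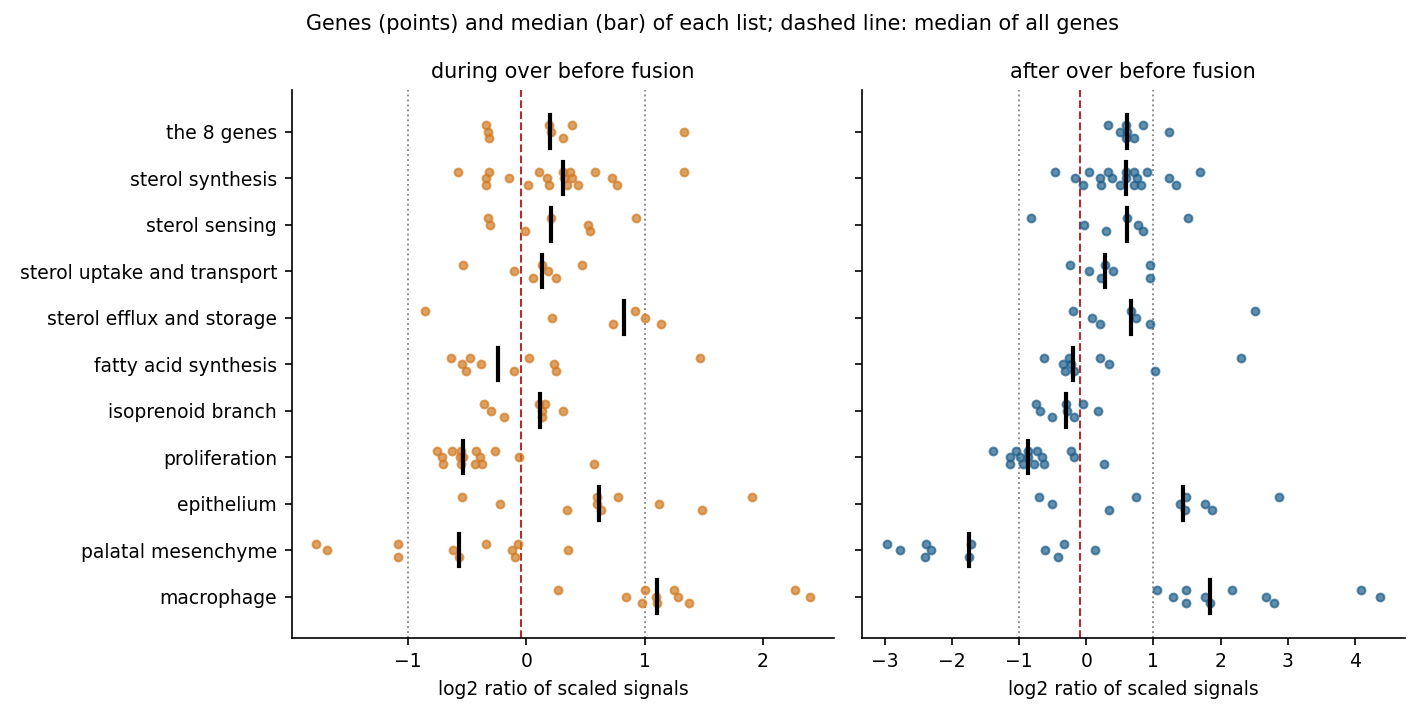
Log2 ratio of each gene (points) and the median (black bar) for the 8 genes and 10 lists, during over before fusion in the left panel and after over before fusion in the right, with dotted lines at 2-fold and the median of all genes dashed; a gene under the floor on 1 array enters at the floor. The 8 genes have medians of 0.20 and 0.60. Further right in both panels lie epithelium (0.61 and 1.44), macrophage (1.11 and 1.84) and efflux and storage (0.83 and 0.67). The sensing list, which holds *Insig1* and *Srebf2*, lies almost level with the 8 genes (0.21 and 0.60). Left of the 8 genes in both lie uptake and transport, fatty acid synthesis, the isoprenoid branch, palatal mesenchyme and proliferation (-0.53 and -0.86).

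The signals of cell type markers moved with the stages, and in pieces of tissue fewer cells of a type and less RNA per cell cannot be told apart. The summed signal of 10 epithelial markers was 11014 before, 18453 during and 26406 after fusion, and 6 of 10 passed 2-fold upwards after fusion, while *Trp63* (0.613) and *Esrp1* (log2 ratio -0.51) were lower than before fusion. That of 11 palatal mesenchyme markers was 11829, 6947 and 4301, with 7 of 11 past 2-fold downwards after fusion. Over all genes 12.6% passed 2-fold upwards and 9.59% downwards after over before fusion. The macrophage sum was 884, 1951 and 4491 (11 of 11 past 2-fold upwards after fusion). That of 8 ciliated cell markers was 213, 2926 and 16383 (8 of 8 past 2-fold upwards), with *Foxj1*, *Ccdc39* and *Dnah5* under the floor before fusion. Bone markers summed to 1424, 5318 and 13953, with *Ibsp* and *Phex* under the floor before fusion. Adipocyte markers summed to 244, 330 and 661, with the defining *Adipoq* and *Cidec* under the floor on all arrays. The sums were lower at the later stages for skeletal muscle markers (696, 259 and 135), endothelial ones (2704, 1039 and 915), erythroid ones (15341, 9923 and 1947) and glial ones (599, 505 and 488). Above the floor were 8, 7 and 3 of 10 skeletal muscle markers and 5, 5 and 4 of 7 erythroid ones before, during and after fusion. All these sums include signals under the floor. Proliferation genes summed to 17497, 12357 and 10116, with 14 of 15 below their signal before fusion at both later stages. Over all genes 46.3% during and 44.8% after fusion had a ratio above 1 to before fusion. The part of these shifts in the ratios of the sterol genes was not tested.

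Because all ratios of a pair move together with the scaling, the values were also read against the median of all genes. The median log2 ratio of the 8 genes was 0.69 above that of all genes for after over before fusion, and 0.25 and 0.55 above it in the steps to and from the array during fusion. Scaling by 1 factor per array leaves these distances in place by construction, apart from the floor, so that they are no sign of stability. Quantile normalization, which is not such a factor, gave 0.68, 0.26 and 0.51. Taking a gene's middle probe set value instead of its brightest, they were 0.72, 0.26 and 0.64, and the number of the 8 above the median of all genes was 8, 5 and 7 in place of 8, 5 and 6. Their own median for during over before fusion was -0.069 with the poly-A controls.

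**Figure D4:**
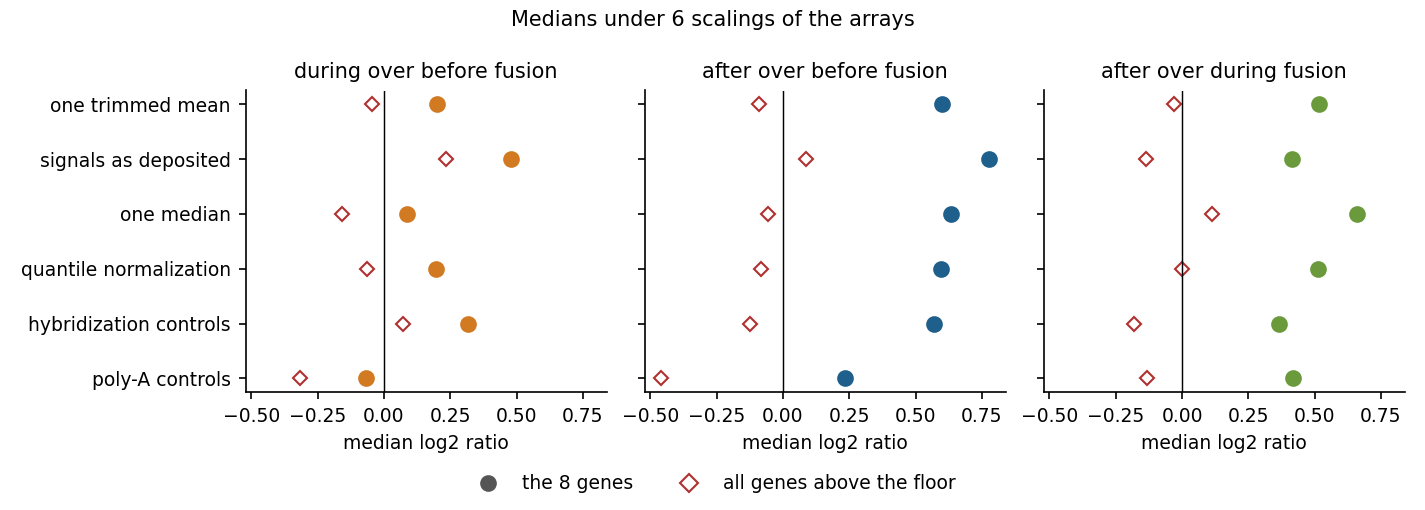
Median log2 ratio of the 8 genes (filled circles) and of all genes above the floor (open diamonds) under 6 scalings of the arrays, for each pair of stages. Both markers slide together, as they must where an array is multiplied by 1 factor (all but quantile normalization), and the median of the 8 genes for during over before fusion reaches -0.069 with the poly-A controls.

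Genes outside the lists were ranked by the distance of their log2 ratios (during and after over before fusion) to the medians of the 8 genes. The closest of 11698 genes were *Ncoa4*, at a distance of 0.0054, then *Per1* (0.0066), *Reep5* (0.017), *Ier5l* (0.023) and *Wdr73* (0.024). In all, 666 genes (5.69%) lay within 0.25 of the medians, so that with 3 arrays many genes lie near them. The medians are not the pattern of each of the 8 genes, which differed in the order of their stages.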

How the data were processed

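The authors computed 1 signal intensity per probe set with the MAS5 algorithm, with background correction, and the deposited intensities are on a linear scale, with no scaling target given in the sources used here. Trimmed means (2% left out at each end) of the deposited signals were 124, 150.0 and 140 before, during and after fusion, and the arrays were scaled to their mean. The platform annotation named 1 gene for 34945 of 45037 probe sets that are not controls (34741 with symbols updated by gene ID to GRCm38.p6), several for 932 and none for 9160. A gene was read from the probe set whose mean scaled signal was highest. Signals below the floor, set at percentile 95 of the 81 olfactory, vomeronasal and taste receptor probe sets, were raised to it.

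Log2 ratios were compared without a test, since each stage has 1 array, and the number of arrays limits the precision. The 8 genes and the lists were chosen with earlier results of these data known. Named genes are the 8, list genes past 2-fold or among the 3 highest or lowest ratios of their list, and the 5 genes closest to the medians of the 8. Further list genes were named after their values were seen. Some listed genes were not analysed here. The steps were tested on simulated data (Python 3.11.15, pandas 2.3.3, numpy 2.4.6). The scaling, the floor, the choice of probe set and the threshold were varied.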

Additional observations from a re-analysis of the deposited data

How the results depend on the processing

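No paired analysis was possible because each stage has 1 array. For the 8 genes, the median log2 ratio of during over before fusion was 0.48 without scaling and -0.069 under poly-A scaling, and that of after over before fusion was 0.23 under poly-A scaling. For the sterol synthesis list the same medians were 0.59, 0.037 and 0.22. The median of all genes itself moved by 0.28 without scaling and by -0.27 under poly-A scaling in the first comparison, and by 0.18 and -0.37 in the second. The count of listed enzymes past 2-fold went from 1 to 3 during fusion without scaling, from 3 to 1 after fusion under poly-A scaling, and from 0 to 2 for after over during fusion with one median. At 1.5-fold the counts were 3, 10 and 6. The other medians of the 8 genes and of the sterol synthesis list moved by less than the SD between probe sets. The list's other counts moved by less than 1.5 times. Across the scalings, the 2-fold count of the 8 genes ranged from 0 to 2 both after over before and after over during fusion. At 1.5-fold their count during over before fusion was 3 without scaling, and that after over before fusion was 1 under poly-A scaling. For other lists, scaling moved the median after over before fusion to -0.57 (fatty acid synthesis) and -0.67 (isoprenoid branch) with the poly-A controls, the efflux and storage count during fusion from 2 to between 0 and 4, and the count of proliferation genes lower after fusion from 4 to between 1 and 12. Of 192 alternative values of single genes among the 8, 167 stayed within that SD and 25 moved further. Part of the 167 could not move. The brightest probe sets lie above every floor used, so that changes of the floor left them in place. The median over probe sets changes nothing for *Sqle*, *Dhcr7* and *Insig1*, which have 1 probe set. The count of 167 is therefore no measure of stability. Of 24 ratios 5 changed sign under some alternative, none of them past 2-fold. With the median over probe sets *Hmgcs1* had a log2 ratio of 1.06 after fusion, past 2-fold. Causes of these differences were not tested.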
